A study of Mus musculus with 28 samples.

Results

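A set of 10 transcription factor genes of the neural crest were followed through RNA-seq of O9-1 cells: Twist1, Twist2, Snai1, Snai2, Tfap2a, Tfap2b, Tfap2c, Zeb1, Zeb2 and Ets1. The 10 genes were chosen by symbol, out of 54429 in the count table. O9-1 is a mouse cranial neural crest line that grows in culture and can be driven toward cartilage, bone and smooth muscle fates. The study asked how oxygen bears on that differentiation, and it compared 8 groups in 28 libraries, 4 libraries a group at 21% oxygen and 3 a group at 0.5% oxygen. Proliferating cells were kept in medium conditioned by STO cells with 15% fetal calf serum, 25 ng/ml bFGF and 5 ng/ml LIF. Chondrocyte cultures had 3 days of osteogenic medium and then 7 days as micromasses on Matrigel in chondrogenic medium with 5% serum, 0.1 µM dexamethasone, 10 ng/ml TGF-beta3 and 50 ng/ml BMP-2. Osteoblast cultures had 10 days in medium with 10% serum, beta-glycerophosphate, 0.1 µM dexamethasone and 100 ng/ml BMP-2. Smooth muscle cultures had 3 days in 10% serum, with no growth factor named. All groups are 1 cell line, and no label says whether the libraries of a group came from separate cultures, so the p-values measure the spread between these libraries, which may be technical.

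As background, Twist and Snail factors drive the epithelial-mesenchymal transition, by which neural crest cells leave the neural tube. Twist1 and Twist2 are basic helix-loop-helix proteins that pair with E-proteins and bind E-boxes, and both restrain the bone factor Runx2. Snai1, Snai2, Zeb1 and Zeb2 are zinc finger repressors of epithelial genes such as Cdh1. AP-2 proteins, made from the Tfap2 genes, specify the neural crest and stay on in facial mesenchyme, while Ets1 marks the cranial crest and takes part in its delamination.

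Promoter sequence is shown for 3 members, Twist1 and Twist2 because these relatives followed different patterns, and Snai1 because it rose in 5 of the 6 differentiation comparisons. Windows from RefSeq (GRCm38.p6) were matched by symbol for 6 of the 10 members. Snai2, Tfap2c, Zeb1 and Ets1 were not matched in the set of windows used here. Each line gives the 250 bases before the annotated start, 5′ to 3′, on the plus strand, at chr12:33957421-33957670 for Twist1, chr1:91801211-91801460 for Twist2 and chr2:167537945-167538194 for Snai1. Capitals mark an E-box (CANNTG) or the core of the hypoxia response element (ACGTG or GCGTG), searched on both strands.
Twist1: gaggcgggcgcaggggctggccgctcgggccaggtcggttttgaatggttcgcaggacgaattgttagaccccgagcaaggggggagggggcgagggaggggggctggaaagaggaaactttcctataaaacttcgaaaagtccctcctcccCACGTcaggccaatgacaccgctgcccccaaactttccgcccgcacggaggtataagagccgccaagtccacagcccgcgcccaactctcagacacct
Twist2: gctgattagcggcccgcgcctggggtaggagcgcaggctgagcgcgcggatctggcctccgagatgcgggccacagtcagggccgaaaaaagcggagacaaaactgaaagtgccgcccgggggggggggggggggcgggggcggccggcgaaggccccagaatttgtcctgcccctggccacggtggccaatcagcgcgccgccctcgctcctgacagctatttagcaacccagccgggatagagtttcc
Snai1: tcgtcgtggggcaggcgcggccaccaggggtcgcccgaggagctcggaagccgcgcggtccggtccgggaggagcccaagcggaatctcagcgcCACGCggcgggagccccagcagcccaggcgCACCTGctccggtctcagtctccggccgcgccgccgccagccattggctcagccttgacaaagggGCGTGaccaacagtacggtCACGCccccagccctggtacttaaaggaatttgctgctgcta
The Snai1 window held 1 E-box, CACCTG, 126 bases before the start, and 3 hypoxia cores. The Twist1 window held 1 hypoxia core and no E-box, and the Twist2 window held neither. No 2 of these matches overlapped. Of 32817 windows of this length over all genes, 66.2% held an E-box and 38.6% a hypoxia core, so either motif is common and a match is a description only.

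Library totals ran from 19869271 to 64693346 counts. Levels below are in CPM, the counts of a gene per 1000000 counts of its library after scaling by the trimmed mean of M-values. Defining markers were checked against the labels. Early crest markers were at or near 0 throughout: Foxd3 and Pax7 had no count in any group, and the 5 markers Sox10, Foxd3, Ngfr, Pax3 and Pax7 together reached at most 2.11 CPM. Chondrocyte markers summed to 2672 to 8303 CPM in chondrocyte cultures at 21% oxygen, against 20.6 to 23.9 CPM in proliferating cells. Neuron markers there summed to 42.1 to 74.6 CPM, against 3.15 to 8.25 CPM. Smooth muscle markers there summed to 2071 to 2524 CPM, against 94.1 to 102.9 CPM. In chondrocyte cultures at 0.5% oxygen neuron markers summed to 69.3 to 99.1 CPM, against 12.8 to 16.5 CPM in proliferating cells. Elavl4 and Rbfox3 had no count in these chondrocyte libraries. Their smooth muscle markers summed to 1887 to 2260 CPM, against 191.2 to 194.9 CPM. Osteoblast markers in replicates 1 to 3 of the osteoblast cultures at 21% oxygen summed to only 62.7 to 72.8 CPM. Proliferating cells were near, at 58.4 to 67.4 CPM, and replicate 4 of the osteoblast cultures held 146.2 CPM. Smooth muscle markers in these osteoblast cultures summed to 3561 to 5101 CPM, overlapping the 3531 to 3991 CPM of the smooth muscle cultures. Osteoblast markers reached 1053 to 2549 CPM in chondrocyte cultures at 21% oxygen. Adipocyte markers summed to 47.3 to 60.4 CPM in smooth muscle cultures at 21% oxygen, with Cidec at 0, against 0.38 to 0.88 CPM in proliferating cells. In osteoblast cultures they summed to 20.1 to 23.2 CPM at 0.5% oxygen, with Adipoq and Cidec at 0, against 3.98 to 6.76 CPM at 21%, with Adipoq and Plin1 at 0. The part of these markers in the results was not tested. The 3 libraries labelled smooth muscle at 0.5% oxygen went against their label. Their smooth muscle markers summed to 94.8 to 118.9 CPM, against those levels in smooth muscle cultures at 21% oxygen and 191.2 to 194.9 CPM in proliferating cells at 0.5% oxygen. They also stood apart in mitochondrial ribosomal RNA, at 11.6% to 13.3% of counts against at most 0.0889% in the other 25 libraries, and in a mean scaling factor of 0.518 against 0.914 to 1.28 in the other groups. Blood markers summed to 33.6 to 37.4 CPM there, nearly all Cd68, with Adgre1 and Cd3e at 0, against at most 5.85 CPM elsewhere. Among osteoblast cultures at 21% oxygen, replicate 4 stood apart, with chondrocyte markers at 1254 CPM against 129.2 to 144.9 CPM in the other 3 libraries. Groups whose libraries do not overlap were the usual case. For chondrocyte, osteoblast and smooth muscle labels against proliferating cells, 70.3%, 74.7% and 74.9% of all genes tested did not overlap at 21% oxygen and 73.8%, 74.8% and 75.3% at 0.5%, so such a gap in a member is a description.

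**Figure D1:**
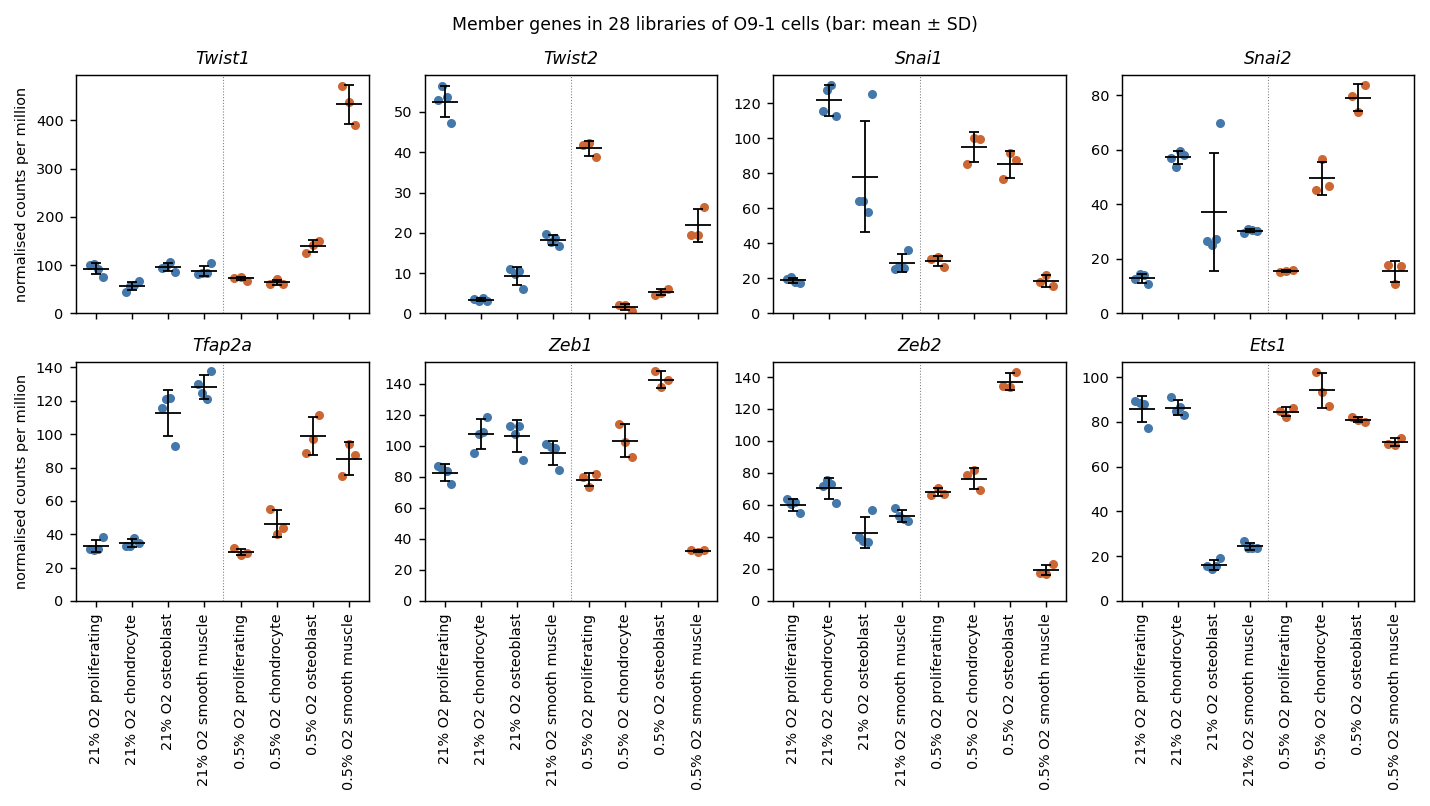
Level of the 8 members with enough counts to test, in CPM on linear axes from 0, in each of the 28 libraries (points, blue at 21% and orange at 0.5% oxygen) with the mean ± SD of each group (bars). Twist1 stands highest in the 3 libraries labelled smooth muscle at 0.5% oxygen and Twist2 in proliferating cells. Ets1 is lowest in the osteoblast and smooth muscle cultures at 21% oxygen. By library size alone, not drawn here, Ets1 under the smooth muscle label at 0.5% oxygen lies just above the latter.

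Twist1 (ENSMUSG00000035799, chr12:33957671-33959829, GRCm38) lay between 45.5 and 107.2 CPM in 6 of the 8 groups and was higher in 2 groups at 0.5% oxygen. In proliferating cells at 21% oxygen the 4 libraries held 99.5, 102.3, 91.2 and 76.6 CPM, and those at 0.5% oxygen held 73.9, 75.6 and 67.9 CPM. The libraries labelled smooth muscle at 0.5% oxygen held 471.1, 438.3 and 391.4 CPM, against 80.9, 84.6, 82.9 and 104.3 CPM in smooth muscle cultures at 21%. These 3 libraries lay far above every other library, and the next group, osteoblast cultures at 0.5% oxygen, held 126.3, 142.0 and 150.2 CPM and also lay above all the rest. Against proliferating cells at the same oxygen level, Twist1 rose 6.51-fold in the first (log2 2.70, SE 0.09, edgeR adjusted p = 4.69e-10) and 1.92-fold in the second (log2 0.94, SE 0.08, adjusted p = 4.16e-08). It fell by 0.63 on the log2 scale in chondrocyte cultures at 21% oxygen (SE 0.11, adjusted p = 0.000381), where the libraries held 45.5, 56.2, 58.3 and 67.0 CPM, and by 0.98 on library size alone. The osteoblast and smooth muscle cultures at 21% oxygen overlapped the proliferating cells, with log2 differences of 0.12 and -0.02 that did not pass the test. Chondrocyte cultures at 0.5% oxygen also overlapped their controls (log2 -0.17, adjusted p = 0.0599). That value passed by library size alone (-0.50, adjusted p = 4.8e-05), with no filter or with at least 10 counts in every library (adjusted p = 0.043 and 0.0484), and without replicate 3 of the proliferating cells (-0.22, adjusted p = 0.0326) or replicate 2 of the chondrocyte cultures (-0.23, adjusted p = 0.0159).

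The size of the Twist1 rise in the smooth muscle label depends on scaling. By library size alone the 3 libraries held 250.9, 221.1 and 202.3 CPM and the log2 difference from proliferating cells was 1.43, still above 0. On that scaling the falls were larger in the same comparison, at -2.07 for Twist2, -1.86 for Snai1, -2.43 for Zeb1 and -2.97 for Zeb2. Exon length moved with the result in the same libraries. Protein-coding genes under 2000 bases of exon had a median log2 change of 0.70 against proliferating cells at 0.5% oxygen, those from 2000 to under 4000 bases 0.07, those from 4000 to under 8000 bases -0.33 and those of 8000 or more -0.67. Twist1 spans 1628 exonic bases and lay well above the median of its class, while Zeb1 (10266 bases) and Zeb2 (19942 bases) lay below theirs. Other members ran against the order of the classes. Snai1, of 1621 bases, fell. Tfap2a (4903 bases) stood at 1.66 and Ets1 (8476 bases) at -0.13, above their class medians, and Twist2 (3174 bases) at -0.79, below its own. The part of length, mitochondrial RNA and the blood markers in these levels was not tested.

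**Figure D2:**
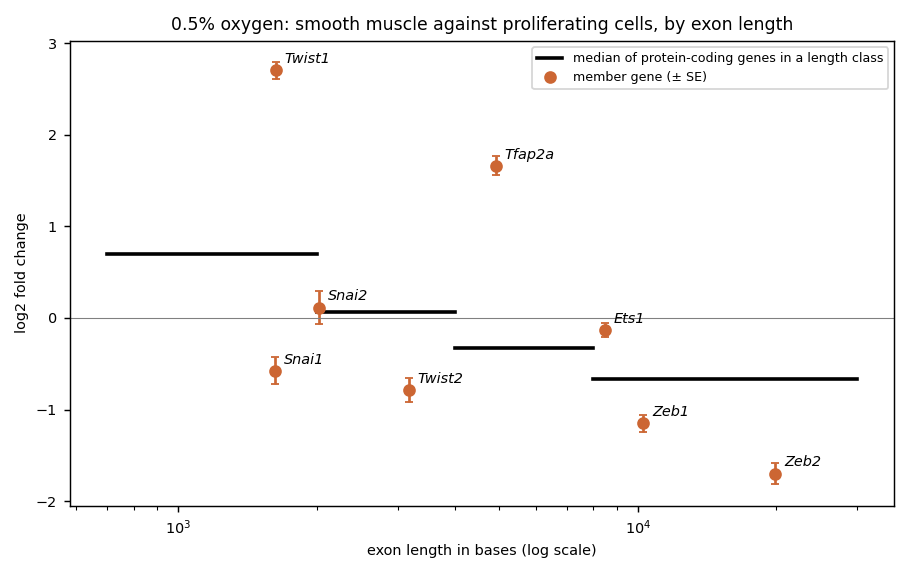
Log2 fold change (± SE) of each tested member between libraries labelled smooth muscle and proliferating cells at 0.5% oxygen, plotted against exon length in bases on a log axis, with black bars for the median of protein-coding genes in 4 length classes. The class medians fall from 0.70 to -0.67 with length, and Twist1 at 2.70 and Tfap2a at 1.66 lie above them.

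Twist2 (ENSMUSG00000007805, chr1:91801461-91848028) behaved unlike its relative and was highest in proliferating cells. At 21% oxygen the proliferating libraries held 52.9, 56.4, 53.8 and 47.1 CPM, and at 0.5% oxygen 41.8, 42.4 and 38.8 CPM. It was lowest in chondrocyte cultures, with 3.64, 3.19, 3.77 and 3.09 CPM at 21% oxygen and 2.00, 2.17 and 0.723 CPM at 0.5%. No differentiated library overlapped the proliferating libraries of the same oxygen level. At 21% oxygen Twist2 fell by 3.86 (SE 0.09, edgeR adjusted p = 9.68e-12), 2.43 (SE 0.16, adjusted p = 5.26e-07) and 1.47 (SE 0.07, adjusted p = 2.95e-11) on the log2 scale in chondrocyte, osteoblast and smooth muscle cultures, which share their proliferating controls. At 0.5% oxygen it fell by 4.68 (SE 0.27), 2.96 (SE 0.12) and 0.79 (SE 0.13) in the same order (adjusted p = 7.29e-07, 6.18e-12 and 0.000201). In bulk RNA fewer cells of one type and less RNA per cell cannot be told apart, here or below. Twist2 shares 1477 exonic bases with the antisense gene Gm29100, and whether the counting used strand is not given in the sources used here. Gm29100 had 3432 counts in all against 18011 for Twist2, and its mean of 9.73 CPM in proliferating cells and 0.77 CPM in chondrocyte cultures at 21% oxygen ran the same way, so the 2 genes' reads may be mixed.

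Snai1 (ENSMUSG00000042821, chr2:167538195-167542814) was low in proliferating cells and high in chondrocyte and osteoblast cultures at both oxygen levels. Proliferating libraries held 19.6, 20.6, 18.03 and 17.3 CPM at 21% oxygen and 31.2, 32.3 and 26.5 CPM at 0.5%. Chondrocyte cultures held 115.7, 127.7, 130.5 and 112.5 CPM at 21% and 85.0, 100.3 and 99.6 CPM at 0.5%. Every chondrocyte library was above every proliferating library, a rise of 6.76-fold at 21% oxygen (log2 2.76, SE 0.07, edgeR adjusted p = 1.67e-11) and 3.15-fold at 0.5% (log2 1.66, SE 0.09, adjusted p = 4.71e-09). In osteoblast cultures Snai1 held 64.1, 64.4, 58.1 and 125.3 CPM at 21% oxygen, the last being replicate 4, and 76.6, 91.3 and 87.6 CPM at 0.5%. The rise there was 4.29-fold at 21% oxygen (log2 2.10, SE 0.24, adjusted p = 2.6e-05) and 2.83-fold at 0.5% (adjusted p = 1.52e-09). Without replicate 4 the log2 value at 21% was 1.73 and still passed. Smooth muscle cultures at 21% oxygen rose by less, to 25.6, 27.1, 26.1 and 36.05 CPM (log2 0.65, SE 0.10, adjusted p = 3.12e-05), whereas the libraries of that label at 0.5% oxygen held 17.8, 22.05 and 15.7 CPM, below their controls (log2 -0.58, SE 0.15, adjusted p = 0.0046).

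Snai2 (ENSMUSG00000022676, chr16:14705852-14709385), long used as a marker of migrating crest, followed a like course. It held 12.5, 14.5, 14.1 and 10.9 CPM in proliferating cells at 21% oxygen, and 57.1, 53.8, 59.7 and 58.2 CPM in chondrocyte cultures, a 4.63-fold rise (log2 2.21, SE 0.09, edgeR adjusted p = 5.12e-10). Its highest group was osteoblast cultures at 0.5% oxygen, with 79.7, 74.0 and 83.6 CPM against 15.3, 15.6 and 15.8 CPM in proliferating cells there, a 5.07-fold rise (log2 2.34, SE 0.09, adjusted p = 1.88e-12). Osteoblast cultures at 21% oxygen held 26.4, 25.2 and 27.2 CPM in 3 libraries and 69.8 CPM in replicate 4. All 4 lay above the proliferating cells, and the log2 rise of 1.57 (SE 0.33, adjusted p = 0.00163) was 1.02 without replicate 4. Smooth muscle cultures rose to between 29.6 and 30.9 CPM at 21% oxygen (log2 1.27, SE 0.09, adjusted p = 1.28e-09), while the libraries of that label at 0.5% held 17.8, 10.97 and 17.5 CPM and overlapped their controls (log2 0.11, adjusted p = 0.593). By library size alone that value turned to -1.16 and passed (adjusted p = 0.00016).

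**Figure D3:**
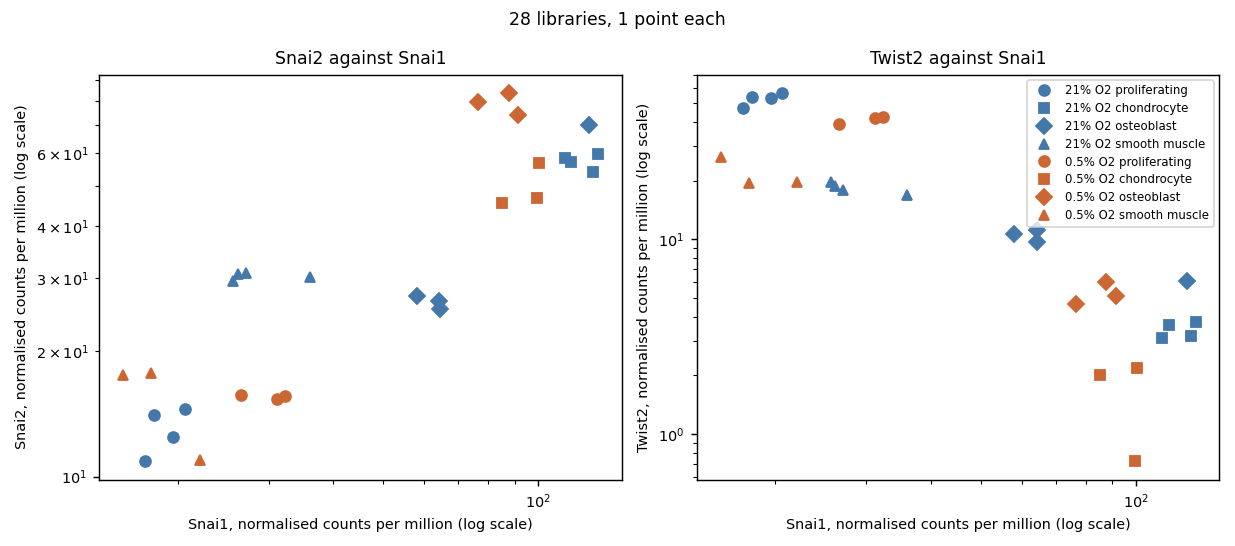
Snai2 (left) and Twist2 (right) against Snai1 in each of the 28 libraries, in CPM on log axes, with colour for oxygen level and marker shape for the culture. Snai2 runs upward with Snai1 and Twist2 runs downward.

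Across the 28 libraries log2 levels of Snai1 and Snai2 had a Pearson r of 0.88, and of Snai1 and Twist2 an r of -0.88. Without the 3 libraries labelled smooth muscle at 0.5% oxygen the values were 0.88 and -0.90. Twist1 and Twist2 had an r of only 0.30, and 0.28 without those libraries. The libraries fall into 8 groups, so these values describe differences between groups and carry no test.

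Tfap2a (ENSMUSG00000021359, chr13:40715302-40738376), the AP-2 gene most tied to facial development, split the lineages differently from the Snail genes. Proliferating cells held 31.5, 30.6, 30.9 and 38.5 CPM at 21% oxygen, and chondrocyte cultures held 33.0, 33.1, 37.9 and 35.05 CPM. Those 2 groups overlapped (log2 0.16, SE 0.09, edgeR adjusted p = 0.134). Without replicate 4 of the proliferating cells the value was 0.24 and passed (adjusted p = 0.00787), and by library size alone it was -0.19 (adjusted p = 0.0718). Osteoblast cultures held 115.9, 121.3, 122.0 and 92.7 CPM and smooth muscle cultures 130.2, 124.7, 121.2 and 137.8 CPM, rises of 3.57-fold (log2 1.83, SE 0.11, adjusted p = 2.67e-07) and 4.06-fold (log2 2.02, SE 0.08, adjusted p = 1.97e-12). At 0.5% oxygen osteoblast cultures and the smooth muscle label were again the higher groups, with 31.5, 27.8 and 28.6 CPM in proliferating cells, 55.4, 40.2 and 43.5 CPM in chondrocyte cultures, 88.8, 97.1 and 111.2 CPM in osteoblast cultures and 74.9, 94.1 and 87.3 CPM under the smooth muscle label. All 3 differentiated groups lay above the proliferating libraries, by 0.65 (SE 0.11, adjusted p = 0.000178), 1.75 (SE 0.09, adjusted p = 1.6e-10) and 1.66 (SE 0.11, adjusted p = 8.17e-08) on the log2 scale. The first and last values were 0.32 and 0.38 under library size alone. On that scaling the smooth muscle label held 39.9, 47.5 and 45.1 CPM and overlapped chondrocyte cultures, at 49.9, 36.7 and 40.3 CPM. Both lay below osteoblast cultures, at 88.3, 95.2 and 108.3 CPM. Antisense genes Gm47061 and Gm26688 share 265 and 380 exonic bases with Tfap2a but had only 972 and 923 counts in all, against 57861.

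The other AP-2 genes were barely present. Tfap2b (ENSMUSG00000025927, chr1:19208914-19238576) had 10, 7, 12 and 0 counts in proliferating libraries at 21% oxygen and 4, 5 and 9 counts at 0.5%. Every differentiated group had 0 to 2 counts of Tfap2b in all. With a floor of 3 counts over the group, pooled Tfap2b counts were 6.41-fold lower in chondrocyte cultures than in proliferating cells at 21% oxygen. At 0.5% they were 5.70-fold lower in osteoblast cultures and 2.33-fold lower under the smooth muscle label. Replicate 4 of the proliferating cells at 21% itself had 0 counts, and these ratios leave out the spread between libraries. Tfap2c (ENSMUSG00000028640, chr2:172549593-172558622) had 2 counts in proliferating cells at 21% oxygen, 1 at 0.5%, 4 in chondrocyte and 1 in osteoblast cultures at 0.5% and none in the remaining 4 groups. Neither gene passed the filter on low counts in any comparison, so 8 of the 10 members were tested throughout.

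Zeb1 (ENSMUSG00000024238, chr18:5591860-5775467) differed little among the groups at 21% oxygen. Proliferating cells held 87.2, 85.0, 83.7 and 75.1 CPM, and the group means of chondrocyte, osteoblast and smooth muscle cultures were 107.4 ± 9.57, 106.1 ± 10.3 and 95.6 ± 7.67 CPM (SD, n = 4). The rises were small, at 0.45, 0.41 and 0.26 on the log2 scale (SE 0.07, 0.08 and 0.06), and all passed the test (edgeR adjusted p = 8.79e-05, 0.000834 and 0.00174), although the smooth muscle libraries overlapped the controls. By library size alone the chondrocyte value was 0.10 and did not pass (adjusted p = 0.179), and the osteoblast value was 0.26 and passed. At 0.5% oxygen Zeb1 ranged further, from 148.2, 137.7 and 142.3 CPM in osteoblast cultures to 33.0, 31.6 and 32.6 CPM under the smooth muscle label, with 79.8, 73.3 and 81.6 CPM in proliferating cells. It rose by 0.86 in the first (SE 0.07, adjusted p = 2.35e-08) and fell by 1.15 in the second (SE 0.09, adjusted p = 5.01e-07). In chondrocyte cultures there it rose by 0.39 (SE 0.08, adjusted p = 0.000443), but by 0.06 on library size alone, which did not pass (adjusted p = 0.458).

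Zeb2 (ENSMUSG00000026872, chr2:44983632-45117395), whose loss in people causes a crest disorder with absent gut nerves, showed the same extremes. It held 134.4, 133.5 and 143.0 CPM in osteoblast cultures at 0.5% oxygen and 17.8, 17.1 and 23.1 CPM under the smooth muscle label, against 66.3, 70.8 and 66.9 CPM in proliferating cells. Neither group overlapped those controls, with log2 changes of 1.01 (SE 0.07, edgeR adjusted p = 3.24e-09) and -1.70 (SE 0.12, adjusted p = 1.84e-07). At 21% oxygen osteoblast cultures went the other way, with 39.8, 37.3 and 36.6 CPM in 3 libraries and 56.9 CPM in replicate 4, against 63.7, 60.3, 61.9 and 55.0 CPM in proliferating cells (log2 -0.44, SE 0.14, adjusted p = 0.0146). Replicate 4 overlapped the controls, and without it the value was -0.66. Chondrocyte cultures rose slightly at 21% oxygen (log2 0.30, SE 0.07, adjusted p = 0.0027), although their libraries overlapped the controls and the value was -0.05 by library size alone. The call was also lost with all 28 libraries in 1 fit (adjusted p = 0.0583). The values for chondrocyte cultures at 0.5% oxygen (log2 0.16) and smooth muscle cultures at 21% (log2 -0.13) did not pass. The first passed without replicate 3 of the chondrocyte cultures (0.23, adjusted p = 0.0114), with RLE factors (adjusted p = 0.0474) and, with its sign turned, by library size alone (-0.17, adjusted p = 0.0438). The second passed without replicate 4 of the proliferating cells (-0.18, adjusted p = 0.0114) or replicate 1 of the smooth muscle cultures (-0.18, adjusted p = 0.0271). Zeb2 shares 653 exonic bases with its antisense gene Zeb2os, which had 1331 counts in all against 55172.

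Ets1 (ENSMUSG00000032035, chr9:32636221-32757820) was high in 6 groups and low in 2 on the scaling used here. It held between 77.1 and 102.4 CPM in every proliferating, chondrocyte and 0.5% oxygen osteoblast library, and 69.6 to 72.9 CPM under the smooth muscle label at 0.5% oxygen. In osteoblast cultures at 21% oxygen it held 15.8, 14.1, 15.6 and 19.3 CPM, and in smooth muscle cultures at 21% 26.8, 23.8, 23.8 and 23.6 CPM. These 8 libraries lay below all others. The falls from proliferating cells were 5.09-fold (log2 -2.35, SE 0.10, edgeR adjusted p = 2.97e-08) and 3.38-fold (log2 -1.76, SE 0.07, adjusted p = 1.29e-12). None of the 3 differentiated groups at 0.5% oxygen passed against its proliferating cells, with log2 values of 0.15, -0.07 and -0.13 for chondrocyte, osteoblast and smooth muscle labels, although none of the 3 overlapped them. By library size alone all 3 passed, at -0.18, -0.30 and -1.41 (adjusted p = 0.0201, 0.00113 and 2.33e-08), the first with its sign turned. On that scaling the 0.5% smooth muscle label held 37.3, 35.1 and 37.7 CPM, just above the 30.1 to 34.2 CPM of the 21% cultures. The chondrocyte value also passed with RLE factors (adjusted p = 0.0481) and without replicate 3 of those cultures (0.21, adjusted p = 0.0183), and that of the smooth muscle label with no filter (adjusted p = 0.0429) and with all 28 libraries in 1 fit (-0.25, adjusted p = 0.0116). In chondrocyte cultures at 21% oxygen Ets1 overlapped the proliferating cells (log2 0.09, adjusted p = 0.211), and was -0.26 by library size alone (adjusted p = 0.00228).

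Levels per kilobase of exon compare genes only roughly, since the length covers all annotated exons and not the transcripts in use. Twist1 led in proliferating cells at 21% oxygen with 56.8 CPM per kilobase, followed by Twist2 with 16.6, Snai1 with 11.6 and Ets1 with 10.1. Zeb1 held 8.06, Tfap2a 6.70, Snai2 6.43 and Zeb2 3.02. In chondrocyte cultures at 21% oxygen Snai1 led with 75.0 CPM per kilobase, ahead of Twist1 with 34.9 and Snai2 with 28.3, and Twist2 was last of the 8 with 1.08. Under the smooth muscle label at 0.5% oxygen Twist1 reached 266.3 CPM per kilobase and the next member, Tfap2a, 17.4. The size of both values depends on the scaling, as given above.

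**Figure D4:**
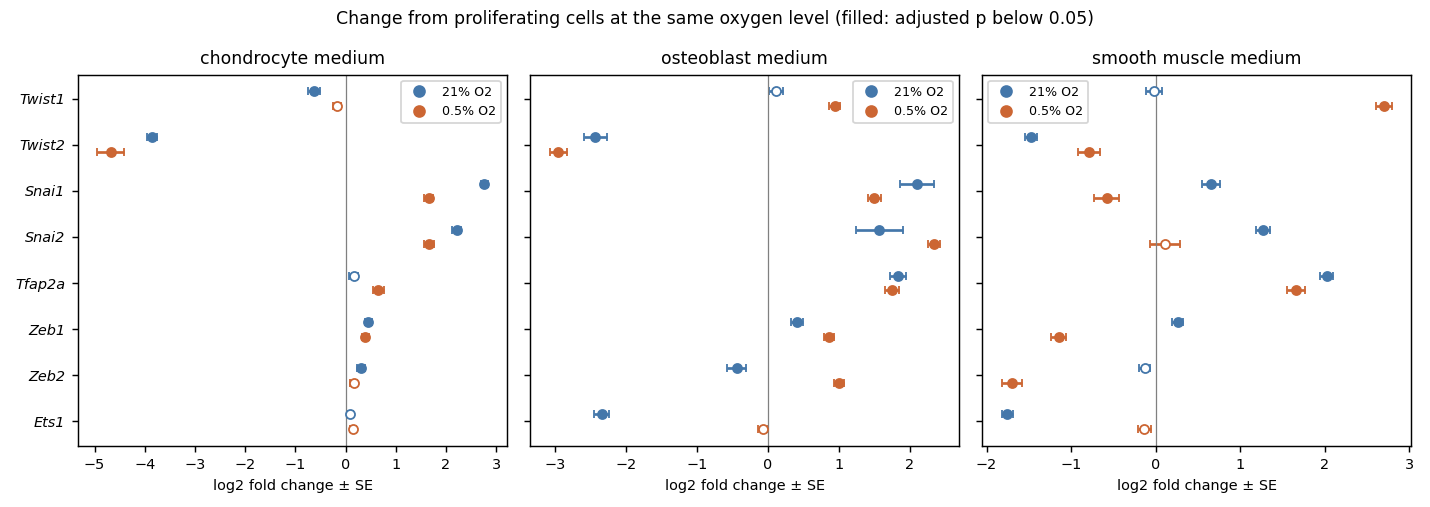
Log2 fold change (± SE) of each tested member in chondrocyte, osteoblast and smooth muscle medium against proliferating cells at the same oxygen level, 21% in blue and 0.5% in orange, with filled points for an edgeR adjusted p below 0.05. Twist2 lies left of 0 in all 6 comparisons, and the Snail genes lie right of 0 in chondrocyte and osteoblast medium.

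Most genes of the whole table passed the test in the differentiation comparisons, so the members' counts are read against that share. At 21% oxygen 6 of 8 members passed in chondrocyte cultures, where 74.9% of all genes did. Of these, 4 rose (Snai1, Snai2, Zeb1 and Zeb2; 37.7% of all genes) and 2 fell (Twist1 and Twist2; 37.2%). In osteoblast cultures 7 of 8 passed (78.7% of all genes), 4 higher (40.9%) and 3 lower (37.8%), the last being Twist2, Zeb2 and Ets1. In smooth muscle cultures 6 of 8 passed (79.7%), 4 higher (40.8%), which were Snai1, Snai2, Tfap2a and Zeb1, and 2 lower (38.9%), Twist2 and Ets1. At 0.5% oxygen 5 of 8 passed in chondrocyte cultures (69.5%), 4 higher (34.9%) and 1 lower (34.6%). Osteoblast cultures had 7 of 8 (71.3%), 6 higher (36.2%) and 1 lower, Twist2 (35.1%). The smooth muscle label had 6 of 8 (70%), with Twist1 and Tfap2a higher (33.8%) and 4 lower (36.2%). The share of members passing in either direction lay near the background in these 6 comparisons. In osteoblast cultures at 0.5% oxygen, 6 of 8 higher stood above the 36.2% of all genes, a description of genes chosen by name that carries no test.

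Low oxygen in proliferating cells gave small differences in the members. Snai1 rose 1.65-fold (log2 0.72, SE 0.09, edgeR adjusted p = 5.59e-06), with all 3 libraries at 0.5% oxygen above all 4 at 21%, where 65% of all genes did not overlap. Snai2 (log2 0.31, adjusted p = 0.0137) and Zeb2 (log2 0.23, adjusted p = 0.00348) also rose. Twist1 (log2 -0.29, adjusted p = 0.00728) and Twist2 (log2 -0.30, adjusted p = 0.000997) fell. Tfap2a, Zeb1 and Ets1 had values of -0.11, -0.03 and 0.04 that did not pass. In all 5 of 8 members passed where 65.4% of all genes did, 3 higher (33.1%) and 2 lower (32.3%). With all 28 libraries in 1 fit only 2 passed, Snai1 and Twist1. Chondrocyte markers summed to 60.3 to 66.4 CPM at 0.5% oxygen against 20.6 to 23.9 CPM at 21%, with Col9a1 and Matn1 at 0. Smooth muscle markers summed to 191.2 to 194.9 against 94.1 to 102.9 CPM, and osteoblast markers to 46.0 to 46.8 against 58.4 to 67.4 CPM. The part of these markers in the values was not tested.

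In chondrocyte cultures 3 members differed between oxygen levels. Snai1 was lower at 0.5% oxygen (log2 -0.36, SE 0.08, edgeR adjusted p = 0.00756), and so was Twist2 (log2 -1.09, SE 0.32, adjusted p = 0.0306), while Tfap2a was higher (log2 0.41, SE 0.11, adjusted p = 0.0165). None of these 3 overlapped between oxygen levels, as 31.8% of all genes did not. The count was 3 of 8 (22.2% of all genes), 1 higher (10.4%) and 2 lower (11.8%). It was 1 without replicate 2 at 21% oxygen, when only Snai1 passed. Leaving out replicate 1, 2 or 3 at 21%, or replicate 3 at 0.5% oxygen, ended the Twist2 call (adjusted p = 0.0542, 0.0621, 0.0775 and 0.0613). Leaving out replicate 2 at 21% or replicate 1 at 0.5% ended that of Tfap2a (adjusted p = 0.0518 and 0.0632), and Snai1 did not pass with all 28 libraries in 1 fit (adjusted p = 0.194). Snai2 at -0.22 did not pass (adjusted p = 0.0977), but did without replicate 2 at 0.5% oxygen (-0.32, adjusted p = 0.0231) and by library size alone (-0.29, adjusted p = 0.0333). Without replicate 3 at 0.5% oxygen, 2091 genes of the whole table passed, against 3157 with it. Chondrocyte markers summed to 652.6 to 1105 CPM at 0.5% oxygen against 2672 to 8303 CPM at 21%, with Matn1 at 0 at 0.5%, and their part in these values was not tested.

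Osteoblast cultures showed the widest oxygen difference in Ets1 and Zeb2. Ets1 was 4.99-fold higher at 0.5% oxygen (log2 2.32, SE 0.11, edgeR adjusted p = 5.89e-07) and Zeb2 3.21-fold (log2 1.68, SE 0.15, adjusted p = 2.54e-05), with no overlap for either, where 58.1% of all genes had none. Marker sums differed too: all 5 osteoblast markers had counts in both groups and summed to 365.8 to 393.0 CPM at 0.5% oxygen against 62.7 to 146.2 CPM at 21%, and all 5 smooth muscle markers to 2159 to 2433 CPM against 3561 to 5101 CPM. Chondrocyte markers summed to 406.9 to 442.6 CPM at 0.5%, with Matn1 at 0, against 129.2 to 144.9 CPM in replicates 1 to 3 at 21%. Replicate 4 at 21% held 1254 CPM. The part of all these markers in the members' values was not tested. Twist1 (log2 0.53, SE 0.10, adjusted p = 0.00151) and Zeb1 (log2 0.43, SE 0.09, adjusted p = 0.00353) were higher too, and Twist2 was lower (log2 -0.83, SE 0.21, adjusted p = 0.0093). Snai2 was higher by 1.08 (SE 0.37, adjusted p = 0.0403). That call depends on the libraries: without replicate 4 at 21% oxygen the value was 1.59 (adjusted p = 1.51e-09), and without each of the other 6 libraries in turn the adjusted p lay between 0.0692 and 0.0847. It was also lost by library size alone (adjusted p = 0.0742) and with no filter on low counts (adjusted p = 0.13). Snai1 (log2 0.12) and Tfap2a (log2 -0.19) did not pass, and passed at 0.45 and -0.27 without replicate 4. Tfap2a also passed by library size alone (-0.35, adjusted p = 0.0244). In all 6 of 8 members passed (54.3% of all genes), 5 higher (27%) and 1 lower (27.3%), and 8 of 8 did without replicate 4, when 9376 genes of the whole table passed against 7890 with it.

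Under the smooth muscle label all 8 tested members passed between oxygen levels, where 75.6% of all genes did, 3 higher (35.4%) and 5 lower (40.2%). Twist1 was 5.14-fold higher at 0.5% oxygen (log2 2.36, SE 0.10, edgeR adjusted p = 1.31e-11) and Ets1 3.02-fold (log2 1.60, SE 0.09, adjusted p = 4.6e-10). Zeb1 (log2 -1.50, SE 0.09, adjusted p = 1.47e-09), Zeb2 (log2 -1.40, SE 0.12, adjusted p = 6.55e-08), Snai2 (log2 -0.91, SE 0.15, adjusted p = 5.56e-05), Snai1 (log2 -0.57, SE 0.16, adjusted p = 0.00372) and Tfap2a (log2 -0.53, SE 0.09, adjusted p = 0.000108) were lower. By library size alone the rises shrank, to 0.99 for Twist1 and 0.23 for Ets1, and the values of the 5 lower members moved further down, to -2.87 for Zeb1, -2.77 for Zeb2, -2.27 for Snai2, -1.95 for Snai1 and -1.90 for Tfap2a, and all 7 still passed. Twist2, at 19.5, 19.6 and 26.5 CPM against 16.8 to 19.7 CPM, overlapped between oxygen levels (log2 0.32, adjusted p = 0.0449), turned to -1.05 by library size alone, and was 0.14 without replicate 3 at 0.5% oxygen (adjusted p = 0.329). The call was also lost without each single library at 21% oxygen in turn, with an adjusted p between 0.0622 and 0.107, with no filter (adjusted p = 0.237), with limma-voom (adjusted p = 0.053) and with all 28 libraries in 1 fit (adjusted p = 0.2).

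**Figure D5:**
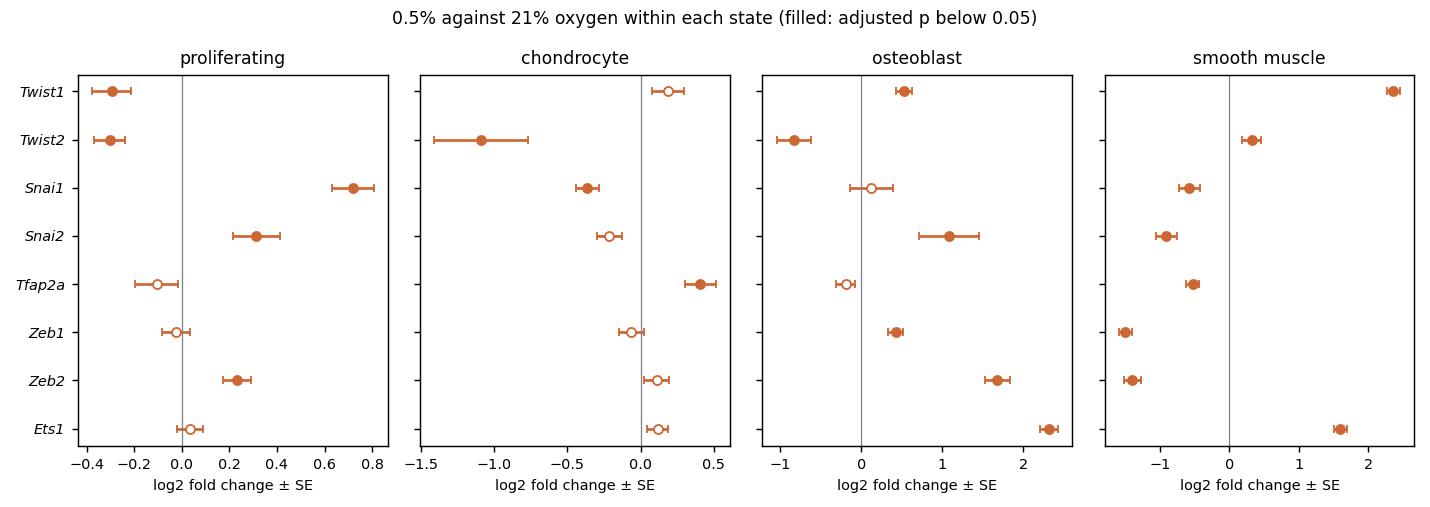
Log2 fold change (± SE) of each tested member at 0.5% against 21% oxygen in proliferating, chondrocyte, osteoblast and smooth muscle cultures, with filled points for an edgeR adjusted p below 0.05. Ets1 and Zeb2 lie at 2.32 and 1.68 in osteoblast cultures, and Twist1 at 2.36 under the smooth muscle label.

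Whether a differentiation change itself differed between oxygen levels was tested with an interaction term over 4 groups. For osteoblast cultures 4 of 8 members passed (54.2% of all genes), Ets1 by 2.32 (SE 0.13, edgeR adjusted p = 1.51e-09), Zeb2 by 1.49 (SE 0.18, adjusted p = 3.81e-06), Twist1 by 0.87 (SE 0.14, adjusted p = 6.9e-05) and Zeb1 by 0.50 (SE 0.11, adjusted p = 0.00144) on the log2 scale. A positive term means that the change from proliferating cells was higher at 0.5% oxygen. For Ets1 it reflects a fall of 2.35 at 21% oxygen beside a value of -0.07 at 0.5% that did not pass. Snai1 (-0.56), Snai2 (0.81), Twist2 (-0.49) and Tfap2a (-0.04) did not pass. Snai2 did without replicate 4 of the osteoblast cultures at 21% oxygen (1.33, adjusted p = 1.45e-08), as did Twist2 (-0.64, adjusted p = 0.000439), when 9297 genes of the whole table passed against 8394 with it. The Twist2 term also passed without replicate 3 of the osteoblast cultures at 0.5% (-0.59, adjusted p = 0.0461), with DESeq2 (adjusted p = 0.046), with at least 10 counts in every library (adjusted p = 0.0381) and by library size alone (-0.61, adjusted p = 0.0208), and the Snai2 term with all 28 libraries in 1 fit (adjusted p = 0.0458). For chondrocyte cultures 5 of 8 passed (43.5%). The rise of Snai1 was smaller at 0.5% oxygen by 1.07 (value -1.07, SE 0.12, adjusted p = 1.71e-06) and that of Snai2 by 0.51 (value -0.51, SE 0.13, adjusted p = 0.00452). With all 28 libraries in 1 fit the Snai2 term did not pass (-0.46, adjusted p = 0.32). Tfap2a (0.53, adjusted p = 0.00826) and Twist1 (0.49, adjusted p = 0.02) differed upward, and Twist2 fell further at 0.5% oxygen (-0.78, adjusted p = 0.0261). Oxygen changes in the proliferating controls enter these terms, at 0.72 for Snai1, 0.31 for Snai2, -0.29 for Twist1, -0.30 for Twist2 and -0.11 for Tfap2a. In the same order those in chondrocyte cultures were -0.36, -0.22, 0.19, -1.09 and 0.41. Of these, Snai2 and Twist1 did not pass in chondrocyte cultures, and Tfap2a did not pass in proliferating cells. The Twist1 call was lost without replicate 3 of the proliferating cells or replicate 2 of the chondrocyte cultures at 0.5% oxygen (adjusted p = 0.0577 and 0.0561). The Twist2 call was lost without replicate 3 of the chondrocyte cultures at 21% or replicate 1 or 2 of the proliferating cells at 0.5% (adjusted p = 0.0536, 0.052 and 0.056), with no filter (adjusted p = 0.0573) and with all 28 libraries in 1 fit (adjusted p = 0.0523), and its value was -0.41 without replicate 3 of the chondrocyte cultures at 0.5% oxygen. For the smooth muscle label 8 of 8 passed (70.4%), from Twist1 at 2.70 to Zeb2 at -1.59. Of these, Twist2 at 0.66 turned to -0.67 by library size alone, Twist1 and Ets1 shrank to 1.36 and 0.27, and the 5 negative terms moved to between -1.72 and -2.92.

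Genes that work with the members were taken as lists. The shares of all genes called higher and lower, given above for each comparison, are the background for the counts, and median log2 changes of all genes against proliferating cells were -0.003, 0.07 and 0.03 for chondrocyte, osteoblast and smooth muscle cultures at 21% oxygen and -0.02, 0.000997 and -0.07 at 0.5%. Corepressors through which Snail and Zeb factors act were called lower more often than all genes in 5 of the 6 differentiation comparisons, a description with no test. At 21% oxygen 9 of 10 fell and none rose in chondrocyte (median log2 -0.46), osteoblast (-0.58) and smooth muscle cultures (-0.30), where 37.2%, 37.8% and 38.9% of all genes fell. At 0.5% oxygen 9 of 10 fell in osteoblast cultures (median -0.59; 35.1% of all genes), 6 fell and 1 rose in chondrocyte cultures (-0.32; 34.6% of all genes fell), and 4 fell under the smooth muscle label (-0.18), near the background of 36.2%. Suv39h1, a histone H3 lysine methyltransferase, went from 90.2 ± 5.03 CPM in proliferating cells at 21% oxygen to 21.0 ± 1.91 CPM in chondrocyte cultures (SD, n = 4). Ezh2, the catalytic subunit of Polycomb repressive complex, went from 105.5 ± 10.0 CPM to 38.6 ± 4.56 CPM in the same groups and to 13.4 ± 1.66 CPM in osteoblast cultures. Both also take part in chromatin silencing outside the Snail and Zeb factors.

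Id proteins bind E-proteins and so keep Twist factors from pairing with them. Of the 7 E-protein and Id genes, 4 rose and 2 fell in chondrocyte cultures at 21% oxygen, 3 rose and 2 fell in osteoblast cultures and 4 rose and 1 fell in smooth muscle cultures, with median log2 changes of 0.40, 0.24 and 0.61. Of all genes 37.7%, 40.9% and 40.8% rose and 37.2%, 37.8% and 38.9% fell, so the osteoblast counts are near the background. Id2 rose in each, from 2.60 ± 0.64 CPM in proliferating cells to 42.6 ± 9.89, 73.8 ± 39.1 and 52.9 ± 4.30 CPM (SD, n = 4). In proliferating cells it was higher at 0.5% oxygen, at 10.4 ± 0.52 CPM (SD, n = 3; log2 2.04, edgeR adjusted p = 1.48e-07), and it rose again in chondrocyte and osteoblast cultures at 0.5% oxygen, by 2.73 and 3.40 on the log2 scale. Tcf3, an E-protein gene, fell by 1.10 in osteoblast cultures at 21% oxygen (adjusted p = 6.9e-08) and by 0.96 at 0.5% (adjusted p = 7.75e-08). At 0.5% oxygen 3 rose and 3 fell in chondrocyte cultures (median 0.06; 34.9% and 34.6% of all genes), and 4 rose and 1 fell in osteoblast cultures (0.37; 36.2% and 35.1%). Under the smooth muscle label at 0.5% oxygen 2 rose and 2 fell (33.8% and 36.2% of all genes), and against the 21% cultures 1 rose and 4 fell (35.4% and 40.2%).

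Of the 8 genes for AP-2 cofactors and inhibitors 6 were tested in each comparison. In chondrocyte cultures 3 rose and 1 fell at 21% oxygen (median log2 0.18), and likewise at 0.5% (0.35). Smooth muscle cultures at 21% had 4 higher and 1 lower (0.41). Of all genes 37.7%, 34.9% and 40.8% rose and 37.2%, 34.6% and 38.9% fell in these comparisons. In osteoblast cultures 5 rose and 1 fell at 21% oxygen (median log2 0.83; 40.9% and 37.8% of all genes) and 5 rose at 0.5% (1.38; 36.2%). Cited2, a coactivator partner of AP-2 that low oxygen is known to induce, rose by 2.21 at 21% (edgeR adjusted p = 2.43e-08) and by 2.61 at 0.5% (adjusted p = 3.92e-10). It was also higher at 0.5% oxygen in proliferating, chondrocyte and osteoblast cultures, by 0.78, 1.52 and 1.18. Kctd1, which inhibits AP-2, rose by 2.09 in osteoblast and 1.88 in smooth muscle cultures at 21% oxygen (adjusted p = 3.12e-06 and 1.4e-10), the 2 groups in which Tfap2a was highest. In the libraries labelled smooth muscle at 0.5% oxygen 1 of 6 rose and 3 fell (median -0.50; 33.8% and 36.2% of all genes), among them Kctd1, by 0.65 (adjusted p = 0.0456).

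Mesenchymal genes of the transition were called higher more often than lower in 5 of the 6 differentiation comparisons. Of 12, 9 rose and 3 fell in chondrocyte, 11 rose and 1 fell in osteoblast and 9 rose and 2 fell in smooth muscle cultures at 21% oxygen, with median log2 changes of 2.57, 2.27 and 1.66. Of all genes 37.7%, 40.9% and 40.8% rose and 37.2%, 37.8% and 38.9% fell. At 0.5% oxygen 8 rose and 3 fell in chondrocyte cultures (median 2.02, beside 34.9% and 34.6% of all genes). In osteoblast cultures there 9 rose and 2 fell (median 1.96, beside 36.2% and 35.1%). Under the smooth muscle label at 0.5% oxygen 3 rose and 7 fell (median -0.35, beside 33.8% and 36.2%). Cdh11, a mesenchymal cadherin, went from 16.9 ± 2.61 CPM in proliferating cells to 409.1 ± 25.7 CPM in chondrocyte cultures at 21% oxygen (SD, n = 4), and stood at 10.3 ± 1.96 CPM under the smooth muscle label at 0.5% (SD, n = 3). Lox, a collagen cross-linker, rose by 6.66, 6.77 and 3.35 at 21% oxygen and by 3.48 between oxygen levels in proliferating cells (edgeR adjusted p = 1.38e-14). The interaction term passed in 11, 10 and 12 of the 12 for chondrocyte, osteoblast and smooth muscle labels (43.5%, 54.2% and 70.4% of all genes), and was negative in 10, 8 and 10 of them, with medians of -0.56, -0.64 and -2.15 against -0.03, 0.0023 and -0.04 for all genes. The proliferating controls differed as well: between oxygen levels 9 of 12 were higher at 0.5% and 1 was lower there (33.1% and 32.3% of all genes; median 0.31). In chondrocyte cultures 3 were higher and 4 lower at 0.5% oxygen (10.4% and 11.8%; median -0.09), in osteoblast cultures 3 and 5 (27% and 27.3%; 0.07), and under the smooth muscle label 3 and 9 (35.4% and 40.2%; -1.60). Vim, the intermediate filament gene, rose by 2.62 under the smooth muscle label at 0.5% oxygen against proliferating cells.

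Epithelial genes that these repressors act on were scarce. Only 3 to 7 of the 20 could be tested in any of the 10 comparisons, and Cdh1, the classic Snail and Zeb target, had at most a mean of 0.78 CPM, in smooth muscle cultures at 21% oxygen. At 21% oxygen 2 of 4 tested rose and 1 fell in chondrocyte, 1 of 3 rose in osteoblast and 3 of 6 rose in smooth muscle cultures, with medians of 0.37, 0.13 and 0.47. At 0.5% oxygen, of 6 tested, 1 rose and 4 fell in chondrocyte cultures (median -1.14), 3 rose and 2 fell in osteoblast cultures (0.37), and 1 rose and 3 fell under the smooth muscle label (-1.06). Between oxygen levels 5 of 7 were higher and 1 lower at 0.5% in proliferating cells (median 0.70; 33.1% and 32.3% of all genes). For the other comparisons the shares of all genes are those given for the mesenchymal list, with falls of 34.6% and 35.1% in chondrocyte and osteoblast cultures at 0.5%. The direction of the calls differed between comparisons. In smooth muscle cultures at 21% oxygen Cdh1 rose (log2 3.94, edgeR adjusted p = 2.23e-05), beside a rise in Snai1 and Snai2. The tight junction gene Cldn1 fell from 30.6 ± 5.25 to 1.24 ± 0.32 CPM in chondrocyte cultures at 21% oxygen (SD, n = 4; log2 -4.56, adjusted p = 8.51e-10), and rose to 65.3 ± 2.33 CPM in osteoblast cultures at 0.5% (SD, n = 3; log2 2.86, adjusted p = 1.05e-12). In both groups Snai1 and Snai2 were high. Ovol1, which opposes Zeb factors in epithelia, went from 0.04 ± 0.03 CPM in proliferating cells at 21% oxygen to 0.77 ± 0.05 CPM at 0.5% (SD, n = 4 and n = 3; log2 4.39, adjusted p = 1.02e-05).

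Other crest genes and relatives moved in both directions. Of 18 other crest factors and receptors 11 could be tested in chondrocyte cultures at 21% oxygen, of which 8 rose and 3 fell (37.7% and 37.2% of all genes), with a median log2 change of 2.43. Msx2, a homeobox factor of the skull, stood at 10.8 ± 4.66 CPM there against 0.10 ± 0.11 CPM in proliferating cells, and Mycn, a factor of dividing progenitors, at 0.03 ± 0.03 against 5.68 ± 0.97 CPM (SD, n = 4). In osteoblast cultures 5 of 9 tested rose and 2 fell (40.9% and 37.8% of all genes), and in smooth muscle cultures 4 of 8 rose and 3 fell, near the background of 40.8% and 38.9%. Of 7 genes that turn over Snail and Twist proteins, 2 rose and 3 fell in chondrocyte, 2 and 2 in osteoblast and 4 and 2 in smooth muscle cultures at 21% oxygen, with medians of -0.07, 0.05 and 0.18. The same shares of all genes apply. Gsk3b, the kinase that marks Snai1 for degradation, rose in all 3, by 0.96, 0.75 and 0.62 on the log2 scale. Erg, an Ets relative of Ets1 and a chondrocyte and endothelial factor, was measurable mainly in the differentiated cultures at 21% oxygen, at 15.6 ± 5.30, 12.3 ± 5.27 and 7.19 ± 0.92 CPM (SD, n = 4), against at most 0.08 CPM in each of the other 5 groups. Scx, a tendon bHLH factor related to Twist, rose in all 3 at 21% oxygen, by 1.21, 0.81 and 1.25.

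Genes closest in pattern were sought among 11412 genes by Pearson r of log2 CPM over the 28 libraries, and again without the 3 libraries labelled smooth muscle at 0.5% oxygen. Tfap2a was closest to Clu in both searches (r = 0.97 and 0.97). Over 28 libraries Snai1 was closest to Dlx5 (r = 0.97, and 0.98 over 25 libraries), Snai2 to Id3 (0.95 and 0.97) and Ets1 to Ankrd1 (0.97 and 0.97). Over 25 libraries Dlx5 and Id3 ranked just behind Cacna1h (0.98) and Ror2 (0.97), and Ankrd1 ranked below Car12 (0.98), which was nearest to Ets1. For Twist1, Zeb1 and Zeb2 the nearest genes over 28 libraries, Trip6 (0.98 and 0.89), Dmxl1 (0.98 and 0.91) and Ube3b (0.94 and 0.87), were no longer among the nearest 3 over 25. Libraries of a group resemble each other, so these values rank genes and test nothing.

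For the members, the authors' deposited tables of comparisons gave 80 log2 fold changes that could be set beside the values above. All 80 had the same sign, and the largest difference was 0.20.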

How the data were processed

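Polyadenylated RNA of 28 O9-1 libraries was analysed from the gene count table that the authors deposited, which holds whole-number counts per Ensembl gene. HISAT2 2.0.5, StringTie 1.3.3b and featureCounts 1.5.0-p3 are named in the submitters' processing notes, with no role given here. Whether counting used strand is not given in the sources used here. The authors' deposited tables also hold log2 fold changes and p-values of their comparisons, used only beside the values computed here. A further 70 columns of per-library values were not used. Totals were 19869271 to 64693346 counts.

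Groups follow the labels. Counts were scaled by the trimmed mean of M-values, filtered with filterByExpr (minimum count 10, total 15) and tested with edgeR 4.0.16 (R 4.3.3), by the quasi-likelihood F test with robust dispersion. There were 10 comparisons, each fitted on its own 2 groups, and 3 interaction terms, each on 4 groups. A gene was called at a Benjamini-Hochberg adjusted p under 0.05 over all genes tested. A prior count of 2 was used for log2 levels, and a floor of 3 counts for genes at 0. On simulated counts for chondrocyte against proliferating cells at 21% oxygen, 58% of genes changed 1.5-fold and 97% changed 2-fold were recovered among 13902 genes. At 0.5% oxygen, with 3 libraries a group, these shares were 42% and 88% among 14174 genes. The simulation changed only 100 genes at each size and gave every gene the same dispersion. Most genes passed in the real comparisons, so these shares do not give the recovery of the tests above. Alternatives were library size alone, RLE factors, no mitochondrially encoded genes, 2 other filters, DESeq2 1.42.0, limma-voom (limma 3.58.1), all 28 libraries in 1 fit, each library left out and a replicate block.

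The members and lists were chosen with earlier results of these data known. Named genes are all 10 members, up to 4 called genes of largest change per list and comparison with a mean of at least 10 counts in a group, and the 3 genes nearest in pattern to each member. Promoter windows come from RefSeq. The gene nearest in pattern to Twist2 is not reported here.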

Additional observations from a re-analysis of the deposited data

Results flagged for a closer look

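Among groups of 4 libraries, 9 of 33 gene and group pairs had 1 library far from the other 3, where chance gives about 1 in 20. This leaves out 3 pairs with 3 libraries at 0, which stand apart by construction. In osteoblast cultures at 21% oxygen replicate 4 stood above the others for Snai1 (125.3 CPM, against 58.12 to 64.36), Snai2 (69.81, against 25.24 to 27.23) and Zeb2 (56.87, against 36.59 to 39.83). In smooth muscle cultures at 21% oxygen replicate 4 stood above the others for Twist1 (104.3 CPM, against 80.87 to 84.57) and Snai1 (36.05, against 25.61 to 27.07) and below them for Zeb1 (84.23, against 98.44 to 100.9), and replicate 1 above them for Ets1 (26.8, against 23.57 to 23.79). In proliferating cells at 21% oxygen replicate 4 was high for Tfap2a (38.48 CPM, against 30.64 to 31.45) and low for Ets1 (77.1, against 87.8 to 89.53). The 3 pairs with libraries at 0 were Tfap2b at 0.03944 CPM in replicate 2 of the osteoblast and 0.06126 CPM in replicate 1 of the smooth muscle cultures, and Tfap2c at 0.07003 CPM in replicate 4 of the proliferating cells.

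The change from proliferating cells differed between oxygen levels, by the interaction term, in 17 of the 24 tests on members, where 43.5%, 54.2% and 70.4% of all genes passed for chondrocyte, osteoblast and smooth muscle labels. For chondrocyte cultures the log2 differences (0.5% minus 21% oxygen) were 0.49 for Twist1, -0.78 for Twist2, -1.07 for Snai1, -0.51 for Snai2 and 0.53 for Tfap2a. The Twist1, Twist2 and Snai2 calls among these were lost under other settings or without single libraries, as given above. Oxygen changes in the proliferating controls, also given above, enter these terms. For osteoblast cultures they were 0.87 for Twist1, 0.50 for Zeb1, 1.49 for Zeb2 and 2.32 for Ets1. For the smooth muscle label they were 2.70 for Twist1, 0.66 for Twist2 (-0.67 by library size alone), -1.26 for Snai1, -1.18 for Snai2, -0.38 for Tfap2a, -1.43 for Zeb1, -1.59 for Zeb2 and 1.60 for Ets1. The libraries labelled smooth muscle at 0.5% oxygen lack the smooth muscle marker levels of the 21% cultures, and the part of that in these values was not tested.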

How the results depend on the processing

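Member fold changes kept their direction and call in 104 of 104 cases without mitochondrially encoded genes, 103 with DESeq2, 103 with limma-voom, 102 with RLE factors, 101 with at least 10 counts in every library, 98 with no filter, 98 with the replicate block, 91 with all 28 libraries in 1 fit and 83 by library size alone. Scaling by library size alone lowered the median of all genes by 1.28 (log2) under the smooth muscle label against proliferating cells at 0.5% oxygen, by 1.37 against the 21% cultures and by 1.33 in that interaction. It took the share of calls that were higher from 48.3% to 15%, 46.8% to 15.6% and 49.6% to 16.6%. The share went from 50.3% to 34.7% and 50.2% to 31.8% for chondrocyte cultures at 21% and 0.5% oxygen, 50.8% to 38.2% for osteoblast cultures at 0.5%, and 46.9% to 31.8% and 49.6% to 36.9% for oxygen in chondrocyte and osteoblast cultures. It turned the sign of Tfap2a (-0.193), Zeb2 (-0.0456) and Ets1 (-0.262) in chondrocyte cultures at 21% oxygen, Zeb2 (-0.17) and Ets1 (-0.18) in those at 0.5%, Twist1 in osteoblast (-0.0322) and smooth muscle cultures (0.064) at 21%, Snai2 under the smooth muscle label at 0.5% (-1.16), Ets1 between oxygen levels in proliferating cells (-0.0391), Snai1 in osteoblast cultures (-0.038), Twist2 in smooth muscle (-1.05) and Twist2 in that interaction (-0.67). With at least 10 counts in every library Twist1 in smooth muscle cultures at 21% was 0.0359, and with no filter Ets1 between oxygen levels in proliferating cells was -0.00538. With all 28 libraries in 1 fit, that Ets1 value was -0.0209, Snai2 under the smooth muscle label at 0.5% was -0.0053, Zeb1 in the chondrocyte interaction was 0.0247, and members called were 2 for oxygen in proliferating cells and 3 for the chondrocyte interaction. The cause was not tested.

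Leaving out each library in turn gave Twist1 in smooth muscle cultures at 21% oxygen a range of -0.11 to 0.025, Snai2 under that label at 0.5% -0.0027 to 0.29, and for oxygen in proliferating cells Zeb1 -0.0795 to 0.0152 and Ets1 -0.0223 to 0.0592. Zeb1 between oxygen levels in chondrocyte cultures ranged from -0.14 to 0.0039 and in that interaction from -0.0992 to 0.0488, and Tfap2a in the osteoblast interaction from -0.13 to 0.0427. Between oxygen levels in chondrocyte cultures, 1 to 4 members and 2091 to 3359 genes passed, the lowest without replicate 2 at 21% and replicate 3 at 0.5% oxygen. Same-numbered libraries did not deviate together (r from -0.0792 to 0.118), so the replicate numbers were not taken as pairs. With a replicate block Ets1 between oxygen levels in proliferating cells was -0.0055, Twist2 between oxygen levels in chondrocyte cultures was no longer called (-1.22, adjusted p = 0.0534), nor was that in smooth muscle cultures (0.27, adjusted p = 0.164). With that block Snai1 (0.45, adjusted p = 0.000101) and Tfap2a (-0.28, adjusted p = 0.00367) between oxygen levels in osteoblast cultures passed. Replicate 4 exists only at 21% oxygen, so the block takes it out of a contrast between oxygen levels. Without that library the Snai1 and Tfap2a values were 0.45 and -0.27, nearly the same. Twist2 in the osteoblast interaction also passed with the block (-0.47, adjusted p = 0.0336), and 26 of 26 counts of calls stayed within 1.5 times. Tfap2b and Tfap2c did not pass the filter on low counts at these depths and were not tested.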
